A study of Mus musculus with 12 samples.

Results

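Respiratory complexes II to V, cytochrome c and the factors named with them were represented by 52 of the 12643 genes measured in MIN6 cells, a mouse insulinoma line used as a model of pancreatic beta cells. They were taken by gene symbol, in its older or newer form: Sdha to Sdhd with the complex II assembly factors Sdhaf1 to Sdhaf4, the Uqcr genes and Cyc1, Cycs, Cox4 to Cox8, and Atp5. This gave 4 subunits and 4 assembly factors of complex II, 9 subunits of complex III, cytochrome c, 14 genes of complex IV, 17 subunits of complex V and 3 factors named after complex V (Atpif1, Dmac2l and Dmac2). The protein-coding matches Cox4i2, Cox7b2, Cox8b and Cox8c, and 14 pseudogenes, are not analysed here. The choice rests on symbols alone, in a rule set with earlier results of these data known.

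The 12 libraries form 4 groups of 3: cells given Pdx1 siRNA and cells given the control siRNA called NT, each as IP RNA and as total RNA. All cells were MIN6 cells at passage 29 in high-glucose DMEM. They received siRNA by AMAXA nucleofection and were harvested after 72 h, and both RNA fractions came from translating ribosome affinity purification (TRAP), in which ribosomes are pulled down together with the mRNAs on them. Pdx1 is a homeodomain transcription factor of the pancreas and of beta cells. A knockdown in 1 tumour-derived line with 1 control siRNA is the model here, and the labels do not say whether the replicates were separate cultures, so a p-value here speaks of the spread among the libraries of a group, and that spread could be technical alone.

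Oxidative phosphorylation passes electrons from NADH and succinate along the inner mitochondrial membrane to oxygen and uses the resulting proton gradient to make ATP. Complex II is the succinate dehydrogenase of the citric acid cycle. Complex III hands electrons to cytochrome c, complex IV (cytochrome c oxidase) passes them to oxygen, and complex V (ATP synthase) makes ATP. In beta cells, ATP made from glucose closes potassium channels and so triggers insulin release. Several subunits of complexes IV and V have tissue isoforms encoded by separate genes. Complex II is encoded wholly in the nucleus, and the mitochondrially encoded subunits of the other complexes are not analysed here.

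The libraries held 29430690 to 45806807 counts over the genes. Pdx1 itself, the check of the labels, had 47.6, 57.4 and 47.9 CPM (counts relative to library size) in Pdx1 siRNA total RNA and 118, 123 and 109.6 CPM in NT total RNA, a 2.29-fold fall. Its IP levels were 50.6, 46.8 and 39.2 CPM with Pdx1 siRNA and 104, 115 and 111 CPM with NT siRNA, a 2.42-fold fall, and the groups overlapped in neither fraction. All 10 beta-cell markers on the list were measured, and of 7 markers of other islet endocrine cells the 5 measured all rose in both fractions (Gcg by 1.99 on the log2 scale in total RNA). That these moved with the siRNA is given beside all siRNA effects that follow, and their part in them was not tested. In bulk RNA, fewer cells of a type and less RNA per cell cannot be told apart.

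CPM are scaled by TMM (trimmed mean of M-values), whose factors were 0.95 to 1.07 in Pdx1 siRNA total RNA, 1.22 to 1.23 in NT total RNA, 0.752 to 0.866 in Pdx1 siRNA IP RNA and 0.984 to 1.01 in NT IP RNA. With library totals alone, the median log2 fold change over all genes was -0.32 in both fractions for Pdx1 over NT siRNA, against -0.04 in total and -0.01 in IP RNA with TMM. All siRNA effects are therefore relative to the typical gene, not to the RNA in a library. NT IP replicate 3 stood apart from NT IP replicates 1 and 2 at several members, and at Cox5b it was level with the Pdx1 siRNA IP libraries. No label or file header gives a batch, and the cause was not tested. As an alternative, a term that sets NT IP replicate 3 and the 3 Pdx1 siRNA IP libraries against the other 8 was added to the fit, a split taken from the counts and called here the split term. IP effects are given with it where it changes a call. NT IP replicate 3 is then the only NT IP library to set against the Pdx1 siRNA IP libraries and its spread is taken from the other groups.

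Per kilobase of transcript, the levels of the members covered a wide range. In NT total RNA the highest levels were 584 ± 38.1 CPM per kb for Cox6a1 (complex IV subunit 6A), 501 ± 20.6 for Atp5b (the catalytic F1 beta subunit) and 421 ± 51.9 for Cox4i1 (subunit 4), each mean ± SD with n = 3. Succinate dehydrogenase was lower: the flavoprotein Sdha had 35.9 ± 1.07 CPM per kb, the membrane anchor Sdhc 23.9 ± 0.45, the iron-sulfur subunit Sdhb 53.4 ± 2.95 and the anchor Sdhd 103 ± 2.3. Cytochrome c (Cycs) had 1.06 ± 0.117 CPM per kb. Atp5g2 had 1.91 ± 0.399, Atp5l 3.96 ± 0.144 and Cox7c 5.5 ± 1.34 CPM per kb, each far below most partners in the same complex.

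The reads of several members can match elsewhere. A transcript was taken to have a near-identical copy when another gene matched at least 50% of it at 95% identity or more, over 100 bases or more, and 8 of the 52 had one (Atp5g1, Atp5g2, Atp5h, Atp5k, Atp5l, Atp5o, Cox7c and Uqcrb), against 3.56% of all genes. Among others, members were matched in part: 49.5% of Atp5md, 45.9% of Cox6c, 45.1% of Cox5b and 30.3% of Cycs. Whether reads with several matches were counted is not given in the sources used here, so the levels of these genes are uncertain. Exons of 14 members also lie opposite another gene, over 69.6% of Sdhaf1, 41.7% of Cox5a and 31.5% of Atpif1, and the strand setting of the counting is not given either.

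In total RNA most of the respiratory genes did not pass the test for an effect of Pdx1 siRNA, and more fell than rose. Of the 52, 4 rose and 13 fell at an adjusted p under 0.05 (edgeR quasi-likelihood test, Benjamini-Hochberg over all genes), where 53.0% of all genes were called, 23.8% as higher and 29.2% as lower. The median log2 fold change was -0.12 over the members and -0.04 over all genes. The 35 without a call lay between -0.52 and 0.29. In IP RNA, 14 rose and 11 fell against a background of 59.7% called, 29.2% higher and 30.4% lower, and the median was -0.01 for both the members and all genes. With the split term, 5 rose and 4 fell in IP RNA, where 41.2% of all genes were called, 20.6% in each direction. Counted by libraries instead, the Pdx1 siRNA and NT groups did not overlap for 4 higher and 11 lower members in total RNA (58.8% of all genes, 26.1% higher and 32.6% lower) and for 14 higher and 14 lower members in IP RNA (64.9% of all genes, 32.3% higher and 32.6% lower).

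**Figure D1:**
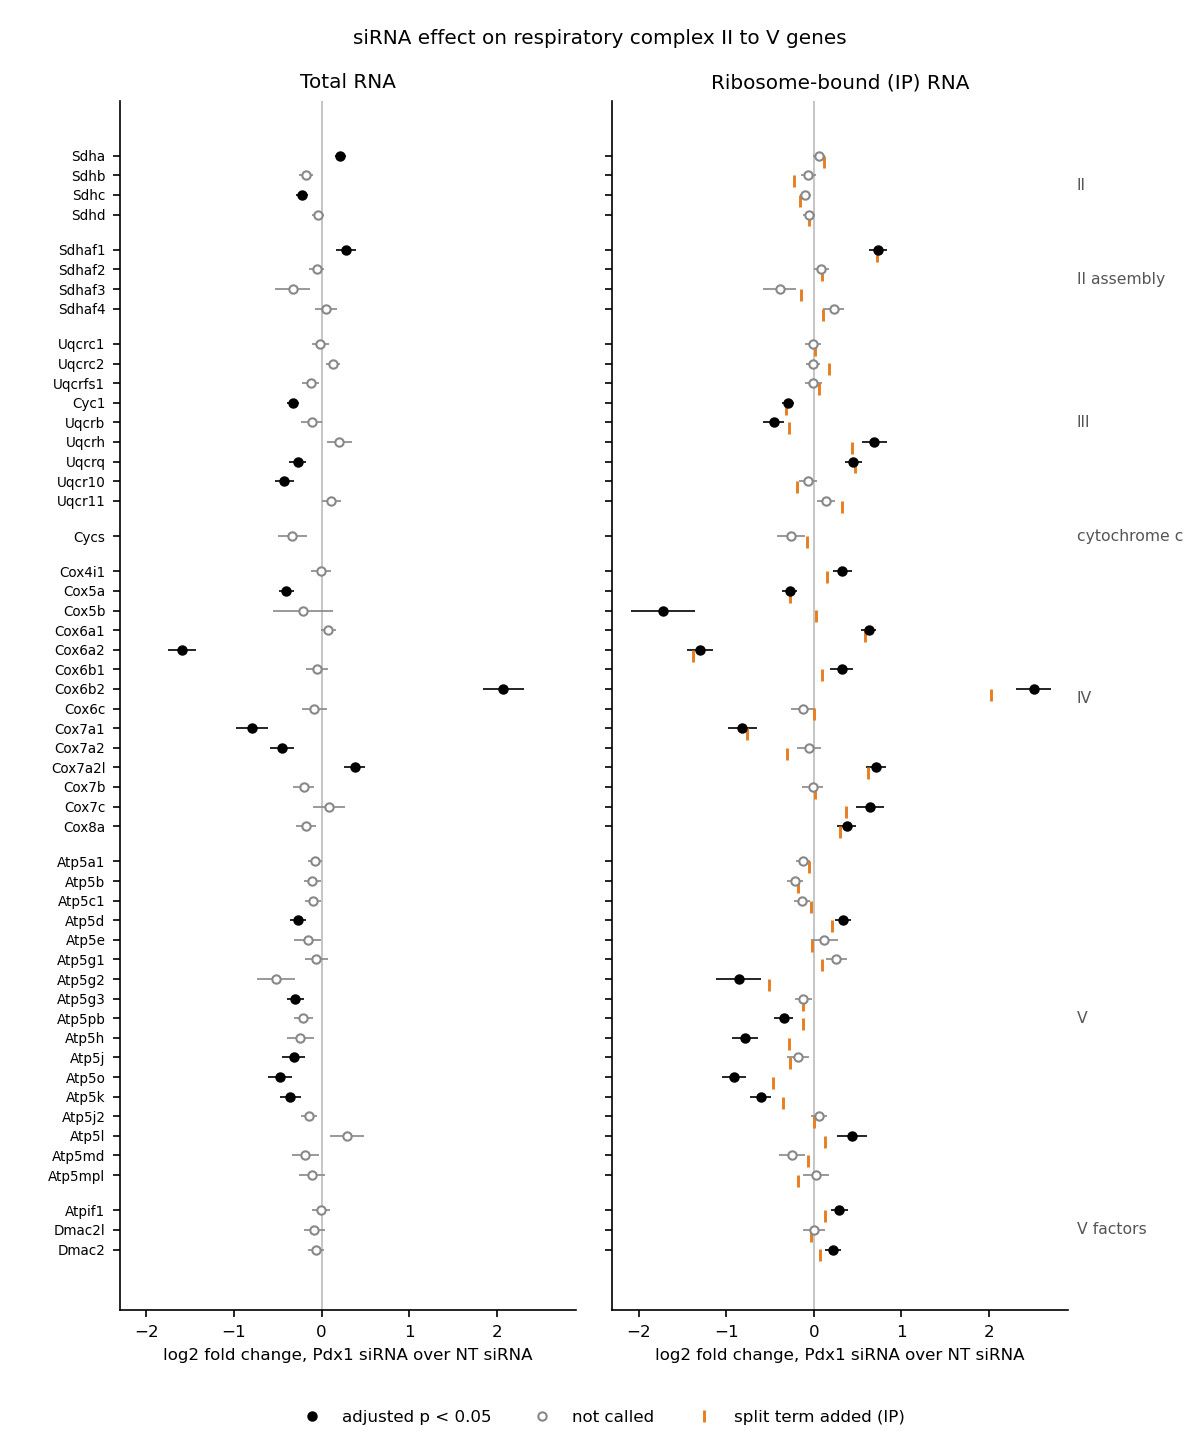
Log2 fold change of Pdx1 siRNA over NT siRNA for each of the 52 genes, grouped by complex, in total RNA (left) and IP RNA (right). Points are edgeR estimates with 1 standard error, filled at an adjusted p under 0.05, and orange ticks give the IP estimate with the split term. Cox6b2 at 2.08 and Cox6a2 at -1.59 in total RNA stand apart from the other members, and the IP estimate of Cox5b is -1.72 without and 0.03 with the split term.

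Replicate 1 stood above the other libraries of its group at most of these genes, in all 4 groups. The median member was 0.27 higher (log2) in Pdx1 siRNA total replicate 1 than in the other libraries of its group and 0.16 higher in NT total replicate 1, and genes under 1 kb were 0.23 and 0.15 higher in the same libraries. In IP RNA the median member was 0.11 higher in Pdx1 siRNA replicate 1 and 0.05 higher in NT replicate 1. Above the mean of the others of its group, in replicate 1, were 42 members in Pdx1 siRNA and 46 in NT total RNA, and 42 in Pdx1 siRNA and 36 in NT IP RNA. Without replicate 1 of both total RNA groups, 4 members rose and 10 fell in total RNA, where 24.2% of all genes rose and 23.5% fell. Without Pdx1 siRNA total replicate 1 alone 2 rose and 23 fell, against 24.8% and 30.6% of all genes. Without NT total replicate 1 or NT total replicate 3 alone 6 fell, against 21.3% and 21.0% of all genes, while 23.1% of all genes rose in either fit. The calls that held in all 25 alternatives tried were Cox6b2, Cox6a2, Cox7a1, Cox5a, Uqcr10, Cyc1 and Atp5o in total RNA, and Cox6b2, Cox6a2, Cox7a1, Cox6a1, Cox7a2l, Sdhaf1, Cyc1 and Atp5o in IP RNA.

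Summed over their genes, complexes II and V were apart between the siRNAs in total RNA and complexes III, IV and V in IP RNA. Taken singly, 58.8% of all genes were apart in total RNA and 64.9% in IP RNA, so such a gap was common. Abundant genes weigh most in a sum. In NT total RNA Atp5b had a mean of 960 and Atp5a1 of 509 CPM, in a mean complex V sum of 2600 CPM, and neither was called. Complex V summed to 2369, 2351 and 2296 CPM in Pdx1 siRNA total RNA and to 2686, 2577 and 2536 CPM in NT total RNA, and all Pdx1 siRNA libraries lay below all NT libraries. In IP RNA it summed to 3742, 3480 and 3532 CPM with Pdx1 siRNA and to 4122, 3983 and 3877 CPM with NT siRNA, again lower in every Pdx1 siRNA library. Complex III summed to 1510, 1369 and 1381 CPM in Pdx1 siRNA IP RNA and to 1301, 1258 and 1285 CPM in NT IP RNA, with the Pdx1 siRNA libraries on top. As a share of raw counts that order was turned, with 0.122%, 0.119% and 0.104% in the Pdx1 siRNA IP libraries and 0.132%, 0.127% and 0.127% in the NT IP libraries. Complex IV summed to 3658, 3188 and 3414 CPM in Pdx1 siRNA IP RNA and to 2768, 2567 and 2939 CPM in NT IP RNA, with no overlap and the Pdx1 siRNA libraries on top. As a share of raw counts the complex IV genes held 0.296%, 0.276% and 0.257% of the Pdx1 siRNA IP libraries and 0.280%, 0.259% and 0.289% of the NT IP libraries, which overlap, so the order of complexes III and IV in IP RNA depends on the scaling. Complex II, which holds no tissue isoforms here, summed to 363.9, 362.8 and 363.7 CPM in Pdx1 siRNA total RNA and to 371.4, 366.6 and 365.7 CPM in NT total RNA, and these sums are close to each other although no library overlaps.

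Complex II showed small and opposite changes. Sdha, the subunit that oxidises succinate, had 114, 126 and 124 CPM in Pdx1 siRNA total RNA and 102, 108 and 103 CPM in NT total RNA. It rose by 0.21 ± 0.07 (log2, SE, adjusted p = 0.0141) with TMM and stood at -0.06 with library totals alone, so its direction depends on the scaling. Sdhc, a membrane anchor, had 62.3, 65.4 and 66.7 CPM in Pdx1 siRNA total RNA and 77.2, 75.4 and 74.4 CPM in NT total RNA, a change of -0.22 (adjusted p = 0.00946). For both genes the groups did not overlap, and each call was lost in a leave-one-out fit (Sdha without Pdx1 siRNA total replicate 2, Sdhc without any 1 of the 3 NT total libraries), at adjusted p up to 0.0539 and 0.0905. Sdhb and Sdhd were not called in either fraction.

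The strongest complex II effect was on an assembly factor. Sdhaf1, which helps to mature the iron-sulfur subunit, had 48.9, 46.9 and 45.9 CPM in Pdx1 siRNA IP RNA and 30.5, 26.2 and 28.7 CPM in NT IP RNA. Every Pdx1 siRNA library was above every NT library, and the rise was 0.73 ± 0.11 (adjusted p = 3.04e-05). In total RNA the rise was 0.28 ± 0.11 (adjusted p = 0.0425), the libraries overlapped, and the call was lost in 3 of 12 leave-one-out fits (without Pdx1 siRNA total replicate 1, NT total replicate 2 or Pdx1 siRNA IP replicate 2), with 0.15 as the lowest estimate. Sdhaf1 shares 69.6% of its exon bases with E130208F15Rik on the other strand. Sdhaf2, which attaches FAD to Sdha, and Sdhaf3 and Sdhaf4 were not called.

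In complex III, cytochrome c1 and small subunits moved while the core proteins did not pass the test. Cyc1, the subunit that reduces cytochrome c, had 99.3, 100.4 and 104 CPM in Pdx1 siRNA total RNA and 128, 128 and 125 CPM in NT total RNA. The IP libraries gave 186, 173 and 189 CPM with Pdx1 siRNA and 224, 221 and 227 CPM with NT siRNA. The groups were apart in both fractions, and Cyc1 fell by 0.33 in total RNA (adjusted p = 0.000667) and by 0.29 in IP RNA (adjusted p = 0.00122). Uqcr10, a small accessory subunit, had 42.7, 36.4 and 35 CPM in Pdx1 siRNA total RNA and 56.3, 44.7 and 52.3 CPM in NT total RNA, and fell by 0.43 (adjusted p = 0.0035). Its IP levels overlapped, with 108, 92.2 and 92.4 CPM under Pdx1 siRNA and 104, 92.3 and 111 CPM under NT siRNA.

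Uqcrq, another small subunit of complex III, was the only member called for a difference between the fractions. It had 79.9, 71.3 and 68.2 CPM in Pdx1 siRNA total RNA and 103, 76.5 and 86.2 CPM in NT total RNA, which overlap, and 251, 224 and 226 CPM in Pdx1 siRNA IP RNA and 170.2, 174 and 168 CPM in NT IP RNA, which do not. The change was -0.27 in total RNA (adjusted p = 0.0302) and 0.45 in IP RNA (adjusted p = 0.00109). The total RNA call was lost without Pdx1 siRNA total replicate 2 or 3 or NT total replicate 1 or 3, with -0.12 as the estimate nearest to 0.

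Uqcrh, the hinge protein between cytochrome c1 and cytochrome c, had 362, 321 and 306 CPM in Pdx1 siRNA IP RNA and 200.2, 169.8 and 244 CPM in NT IP RNA, with no overlap. It rose by 0.69 (adjusted p = 0.000775), and the split term gave an estimate of 0.44 (adjusted p = 0.068). Uqcrb, an accessory subunit with a near-identical copy, had 31, 27.7 and 26.1 CPM in Pdx1 siRNA IP RNA and 42, 39.9 and 34.3 CPM in NT IP RNA, and its estimate was -0.46 without and -0.28 with the split term (adjusted p = 0.00424 and 0.16). Neither kept its call with the split term. The core proteins Uqcrc1 and Uqcrc2, the Rieske protein Uqcrfs1 and Uqcr11 were not called in either fraction, nor was cytochrome c, with 3.31, 2.49 and 2.07 CPM in Pdx1 siRNA total RNA and 3.71, 2.99 and 3.2 CPM in NT total RNA.

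In total RNA, complex IV held the members with the largest changes, and these were isoform genes. Cox6b2, known as the testis isoform of subunit 6B, was counted 60, 76 and 63 times in Pdx1 siRNA total RNA and 10, 20 and 28 times in NT total RNA, or 1.84, 1.75 and 1.74 CPM against 0.254, 0.422 and 0.55 CPM. In IP RNA it had 4.24, 4.37 and 4.35 CPM with Pdx1 siRNA and 0.556, 0.654 and 1.07 CPM with NT siRNA. Every Pdx1 siRNA library was above every NT library in both fractions. The rise was 4.21-fold in total RNA (log2 2.08 ± 0.23, adjusted p = 2.88e-06) and 5.69-fold in IP RNA (log2 2.51 ± 0.20, adjusted p = 5.29e-08), with a log2 value of 2.02 under the split term (adjusted p = 4.15e-06). Even so, Cox6b2 remained a minor transcript, at 3.21 ± 0.1 CPM per kb in Pdx1 siRNA total RNA beside 182 ± 24.3 for the common isoform Cox6b1.

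Cox6b1 itself had 129.8, 104 and 103 CPM in Pdx1 siRNA total RNA and 130.1, 102 and 118 CPM in NT total RNA, overlapping and without a call (log2 -0.05). Its IP levels were 348, 297 and 283 CPM with Pdx1 siRNA and 242, 213 and 289 CPM with NT siRNA, also overlapping, and its rise of 0.32 (adjusted p = 0.0424) was lost without NT total replicate 3 or replicate 1 or 2 of either IP group, at adjusted p up to 0.211, and with the split term (log2 0.10).

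The muscle isoforms went the other way. Cox6a2, the heart and skeletal muscle isoform of subunit 6A, was counted 67, 70 and 57 times in Pdx1 siRNA total RNA and 223, 207 and 290 times in NT total RNA. This is 2.06, 1.62 and 1.57 CPM against 5.66, 4.37 and 5.7 CPM. The IP libraries gave 3.69, 3.13 and 2.79 CPM with Pdx1 siRNA and 8.61, 6.6 and 8.22 CPM with NT siRNA. No library overlapped, and Cox6a2 was 3.01-fold lower in total RNA (log2 -1.59 ± 0.16, adjusted p = 7.76e-07) and 2.47-fold lower in IP RNA (log2 -1.30 ± 0.15, adjusted p = 2.5e-06). Its exons share 10.3% of their bases with Itgad on the other strand.

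Cox7a1, the muscle isoform of subunit 7A, had 0.951, 1.36 and 1.08 CPM in Pdx1 siRNA total RNA and 2.13, 1.6 and 2.22 CPM in NT total RNA. In IP RNA it had 2.35, 2.69 and 1.83 CPM with Pdx1 siRNA and 4.29, 3.9 and 3.87 CPM with NT siRNA. It was lower in every Pdx1 siRNA library, by 0.79 ± 0.19 in total RNA (adjusted p = 0.00223) and 0.81 ± 0.16 in IP RNA (adjusted p = 0.000524) on the log2 scale. Both muscle isoforms are minor in these cells, with 7.71 ± 1.12 CPM per kb for Cox6a2 and 5.05 ± 0.85 for Cox7a1 in NT total RNA, beside 584 ± 38.1 for Cox6a1 and 183 ± 24.4 for Cox7a2.

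**Figure D2:**
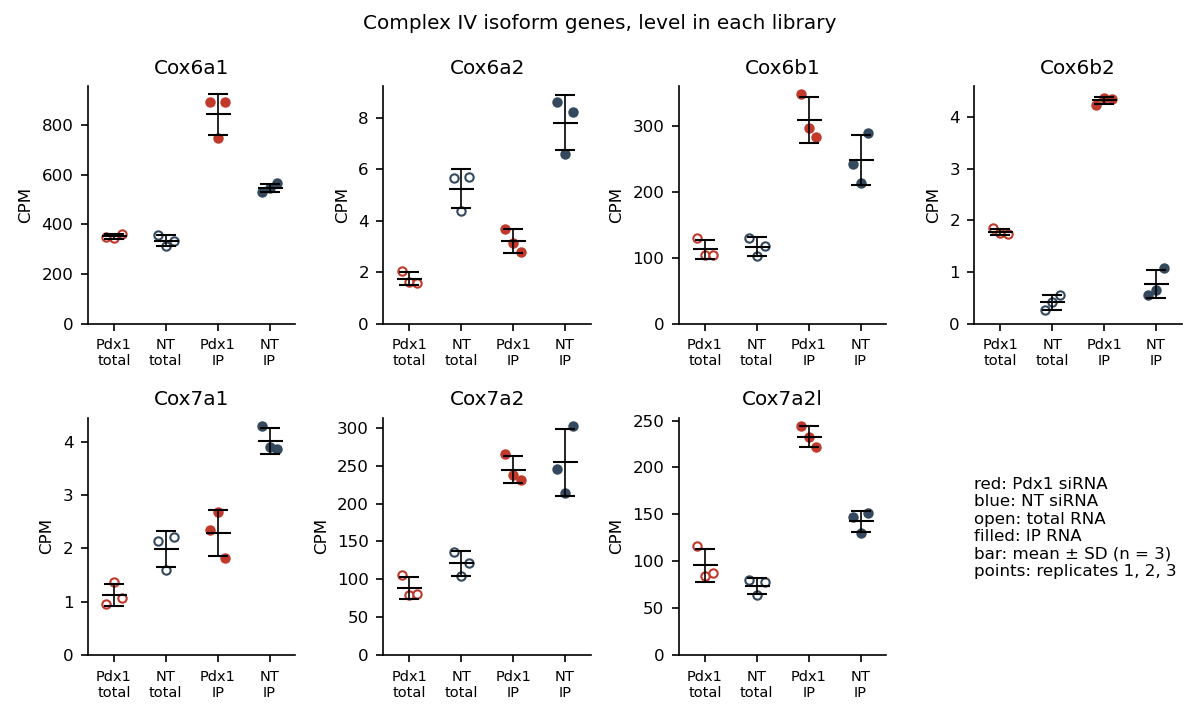
CPM of 7 complex IV isoform genes in each library, with Pdx1 siRNA (red) left of NT siRNA (blue), total RNA as open and IP RNA as filled points, and bars for the mean ± SD (n = 3). Cox6b2 is above, and Cox6a2 and Cox7a1 are below, all NT libraries of the same fraction, at levels of at most 8.61 CPM, while Cox6a1 separates in IP RNA alone.

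Each common isoform was called in 1 fraction alone. Cox6a1 had 348, 345 and 362 CPM in Pdx1 siRNA total RNA and 356, 313 and 331 CPM in NT total RNA, which overlap (log2 0.08, adjusted p = 0.475). Its IP levels were 892, 749 and 893 CPM with Pdx1 siRNA and 530.5, 546 and 565 CPM with NT siRNA, with all Pdx1 siRNA libraries higher, and it rose by 0.63 ± 0.09 (adjusted p = 1.81e-05). The difference between these effects was 0.55 ± 0.12, with an adjusted p of 0.0593. Cox7a2, the common isoform of subunit 7A, had 105, 79.6 and 80.8 CPM in Pdx1 siRNA total RNA and 136, 104 and 122 CPM in NT total RNA. These overlap, and its fall of 0.45 (adjusted p = 0.0114) was lost without Pdx1 siRNA total replicate 2 or NT total replicate 1 or 3 (adjusted p up to 0.0996). In IP RNA Cox7a2 stood at -0.05, without a call.

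Cox7a2l, a relative of subunit 7A that joins complexes III and IV into supercomplexes, rose in both fractions. It had 244, 232 and 222 CPM in Pdx1 siRNA IP RNA and 147, 129.7 and 151 CPM in NT IP RNA, a rise of 0.71 ± 0.12 (adjusted p = 0.000106). In total RNA it had 116, 84.3 and 87.4 CPM with Pdx1 siRNA and 79.5, 63.8 and 78.1 CPM with NT siRNA, a rise of 0.38 (adjusted p = 0.0139). The groups were apart in both fractions, and the total RNA call was lost without Pdx1 siRNA total replicate 1 (log2 0.22, adjusted p = 0.0722).

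Among the remaining complex IV genes, Cox5a, a nuclear-encoded subunit common to all tissues, had 59.4, 51 and 46.7 CPM in Pdx1 siRNA total RNA and 69.2, 66.5 and 71.8 CPM in NT total RNA. It was lower in every Pdx1 siRNA library, by 0.40 (adjusted p = 0.000836), and by 0.28 in IP RNA (adjusted p = 0.00927), where the split term gave -0.27 (adjusted p = 0.0774). Its exons share 41.7% of their bases with Gm26631 on the other strand. Cox4i1, Cox7c and Cox8a rose in IP RNA, by 0.33, 0.64 and 0.37, and none of these calls held with the split term (adjusted p = 0.447, 0.144 and 0.14). Cox4i1, the main isoform of subunit 4, lost its IP call without Pdx1 siRNA IP replicate 1 or 3 or NT IP replicate 1 or 2 (adjusted p up to 0.106), and Cox8a without Pdx1 siRNA IP replicate 1 (adjusted p = 0.0524). Cox6c and Cox7b were not called in either fraction.

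Cox5b, subunit 5B, had the largest gap between NT IP libraries of any member. It had 15.1, 12.3 and 14 CPM in Pdx1 siRNA IP RNA and 62.3, 60.4 and 13.5 CPM in NT IP RNA. NT IP replicate 3 lay among the Pdx1 siRNA libraries and 4.54-fold below the mean of NT IP replicates 1 and 2. The estimate was -1.72 ± 0.37 (adjusted p = 0.00087) over all libraries, and 0.03 (adjusted p = 0.903) with the split term, so the call for Cox5b in IP RNA rests on NT IP replicates 1 and 2. In total RNA it had 38.9, 33.4 and 28.9 CPM with Pdx1 siRNA and 36.7, 38.6 and 41.5 CPM with NT siRNA, which overlap (adjusted p = 0.637).

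Between NT IP replicate 3 and the mean of the other NT IP libraries, 4 members differed over 1.5-fold, as did 3.27% of all genes. Of these 4, Cox5b, Atp5h and Atp5o are matched elsewhere over 45.1% to 77.6% of the transcript and were lower in NT IP replicate 3, while Cox6b2, with no match, was 1.76-fold higher there.

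**Figure D3:**
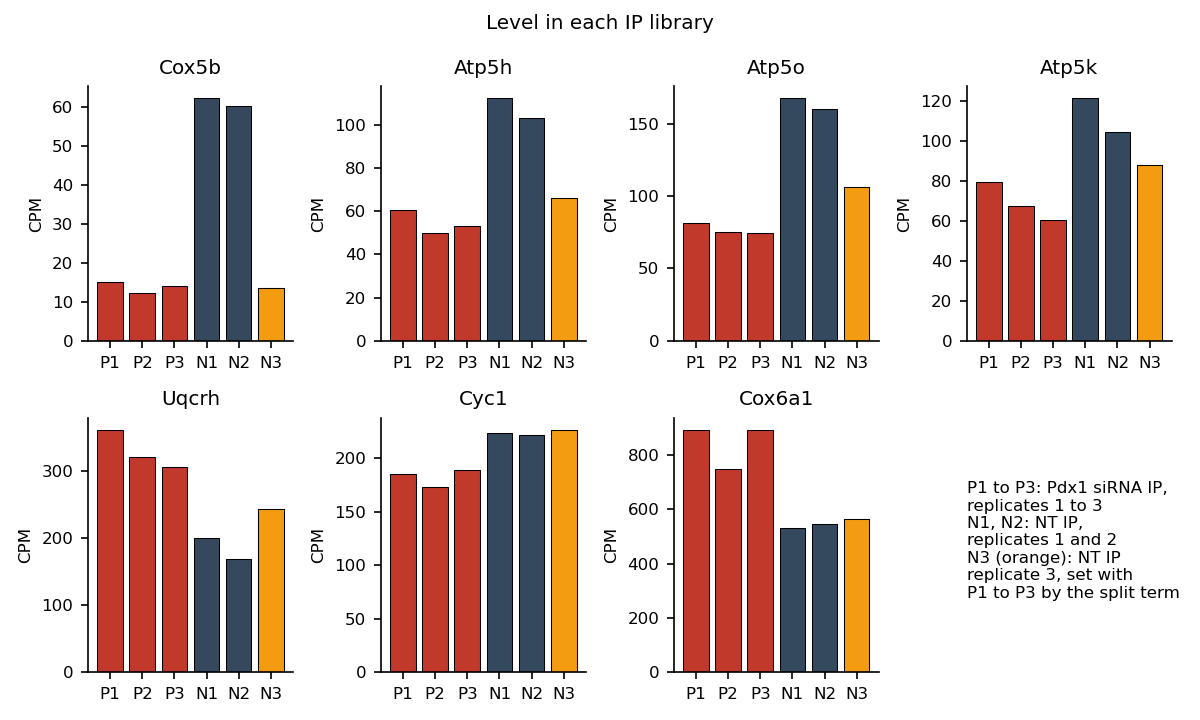
CPM of 7 members in each IP library. Bars P1 to P3 are the Pdx1 siRNA replicates, N1 and N2 the NT replicates 1 and 2, and the orange bar N3 is NT replicate 3, which the split term sets with P1 to P3. For Cox5b the N3 bar (13.5 CPM) is level with P1 to P3 (12.3 to 15.1 CPM), for Atp5h, Atp5o and Atp5k it lies between them and N1 and N2, and for Cyc1 and Cox6a1 it is level with N1 and N2.

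Of the 17 complex V subunits, 0 rose and 5 fell in total RNA, or 29.4% lower, beside 29.2% of all genes. In IP RNA 2 rose and 5 fell, beside 29.2% of all genes higher and 30.4% lower. With the split term 0 rose and 1 fell, beside 20.6% of all genes in each direction. Atp5o, the peripheral stalk subunit OSCP, had 63.9, 61.1 and 54 CPM in Pdx1 siRNA total RNA and 88.4, 77.6 and 82.6 CPM in NT total RNA. It was lower in every Pdx1 siRNA library, by 0.47 ± 0.13 (adjusted p = 0.00701). The IP libraries gave 81.3, 75.2 and 74.2 CPM with Pdx1 siRNA and 168, 159.8 and 106 CPM with NT siRNA, and it fell by 0.91 over all libraries (adjusted p = 2.97e-05) and by 0.46 with the split term (adjusted p = 0.00375). Atp5o was the only member with a near-identical copy whose IP call held with the split term.

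Atp5k, membrane subunit e, had 46, 40.5 and 38 CPM in Pdx1 siRNA total RNA and 58.4, 49.5 and 51.7 CPM in NT total RNA, a fall of 0.36 (adjusted p = 0.0213) that was lost without Pdx1 siRNA total replicate 2 or 3 or NT total replicate 1 or 3, at adjusted p up to 0.143. Atp5j, subunit F6 of the peripheral stalk, had 95.5, 68.9 and 63.3 CPM with Pdx1 siRNA and 101, 83.9 and 98.8 CPM with NT siRNA in total RNA, an overlapping pair of groups, with a fall of 0.32 (adjusted p = 0.0448) that was lost in all leave-one-out fits but those without Pdx1 siRNA total replicate 1, NT total replicate 2 or NT IP replicate 3 (adjusted p up to 0.214). Atp5d, the delta subunit of the central stalk, had 89.1, 94.3 and 84.6 CPM in Pdx1 siRNA total RNA and 112, 107 and 103 CPM in NT total RNA, with no overlap. Atp5d thus fell by 0.27 in total RNA (adjusted p = 0.0221), a call lost without Pdx1 siRNA total replicate 3 or any 1 of the 3 NT total libraries (adjusted p up to 0.146), while in IP RNA it rose by 0.33 (adjusted p = 0.0053, with the split term 0.204). The difference between its effects, 0.59 ± 0.13, had an adjusted p of 0.0564.

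The c-ring of complex V is encoded by 3 genes for the same mature protein. Atp5g3, the most abundant of them at 271 ± 20.9 CPM per kb in NT total RNA, had 182, 151 and 139 CPM in Pdx1 siRNA total RNA and 209, 179 and 192 CPM in NT total RNA. These overlap, and the fall of 0.30 (adjusted p = 0.018) was lost in the same 4 leave-one-out fits as that of Atp5k, at adjusted p up to 0.151. Atp5g1, at 43.2 ± 4.72 CPM per kb in NT total RNA, was not called in either fraction. Atp5g2 had 0.629, 0.83 and 0.581 CPM in Pdx1 siRNA IP RNA and 1.67, 1.07 and 0.981 CPM in NT IP RNA, with -0.86 as its IP estimate (adjusted p = 0.00897, with the split term 0.258 and without NT IP replicate 1 0.0695). Atp5g1 and Atp5g2 have near-identical copies, which leaves their shares of the c-ring transcripts uncertain.

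In IP RNA, Atp5h (peripheral stalk subunit d), Atp5pb (stalk subunit b) and Atp5k fell, by 0.79, 0.34 and 0.60, and none kept its call with the split term, at -0.28, -0.12 and -0.35 (adjusted p = 0.11, 0.475 and 0.0595). Atp5l, subunit g, rose by 0.44 at levels of at most 7.13 CPM, and its call was lost with the split term (adjusted p = 0.645) and without replicate 1 or 2 of either IP group (adjusted p up to 0.184). The Atp5pb call was also lost without NT IP replicate 1 (adjusted p = 0.06). The F1 subunits alpha and beta, which carry the nucleotide sites, were not called: Atp5a1 stood at -0.08 and Atp5b at -0.10 in total RNA. Also without a call in both fractions were Atp5c1, Atp5e, Atp5j2, Atp5md and Atp5mpl. Of the factors, Atpif1, the inhibitor of ATP hydrolysis by the enzyme, rose by 0.29 in IP RNA (adjusted p = 0.0188), and Dmac2, known for complex I assembly, by 0.22 (adjusted p = 0.0479). With library totals alone they stood at -0.015 and -0.083, so their direction depends on the scaling. Both calls were lost with the split term (adjusted p = 0.439 and 0.65), and in leave-one-out fits, at adjusted p up to 0.0982 (without Pdx1 siRNA IP replicate 1 or NT IP replicate 1 or 2) and 0.203 (in 7 of 12). Dmac2l was not called.

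The siRNA effect was then compared between the fractions. The difference, IP minus total, had a median of 0.13 over the members and 0.01 over all genes, and 1 member was called higher and 0 lower, where 0.229% of all genes were called, 0.174% as higher and 0.0554% as lower. The call was Uqcrq, at 0.72 ± 0.14 (adjusted p = 0.0482). It was lost in 8 of 12 leave-one-out fits (all but those without Pdx1 siRNA total replicate 1, NT total replicate 2, Pdx1 siRNA IP replicate 2 or NT IP replicate 3) and with the split term, which gave 0.75 (adjusted p = 0.27). At an unadjusted p under 0.05, 11 members had a higher and 3 a lower effect in IP RNA, beside 9.62% and 7.43% of all genes. The 3 lower ones, Cox5b, Atp5h and Atp5o, stood at -1.51, -0.54 and -0.43, and with the split term at 0.24, -0.04 and 0.01. DESeq2 called 4 members higher and 0 lower, beside 1.12% and 1.46% of all genes. In the edgeR fit of all 12 libraries without added terms, the siRNA effect was thus not shown to differ between fractions for the other 51 members. With the replicate number as a block, Atp5d, Cox6a1 and Cox8a were among the members called higher (edgeR, adjusted p = 0.0308, 0.0251 and 0.0304). That fit called 203 of all 12643 genes higher and 170 lower.

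IP RNA was set against total RNA to ask how each message is represented on purified ribosomes. With Pdx1 siRNA, 45 of 52 members were higher in IP RNA and 1 was lower, where 75.1% of all genes were called, 36.3% as higher and 38.7% as lower. With NT siRNA, 47 were higher and 0 lower, where 69.7% were called, 33.8% as higher and 35.9% as lower, and the count of lower members was also 0 at an unadjusted p under 0.05 and with DESeq2. The median log2 ratio was 0.96 with Pdx1 siRNA (all genes -0.02) and 0.84 with NT siRNA (all genes -0.02). The 1 lower member was Cox5b with Pdx1 siRNA, at -1.29, and the split term gave 0.89. The comparisons of IP with total RNA share their libraries with the siRNA comparisons.

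The ratio varied among the members of every complex. With Pdx1 siRNA the highest ratios were those of Uqcrh, at 1.79 ± 0.15, Uqcrq, at 1.68, and Cox7c, at 1.66. The lowest were those of Cox5b, Atp5g2, at -0.48, and Sdha, at -0.11. With NT siRNA the highest were Uqcrh, at 1.31 ± 0.15, Sdhaf4, the factor that binds Sdha, at 1.25, and Cox4i1, at 1.22, and the lowest were Atp5g2, at -0.15, Sdha, at 0.04, and Dmac2, at 0.12. Sdha was called under neither siRNA. Catalytic and core subunits lay on both sides of the members' median: with Pdx1 siRNA Uqcrc2 stood at 0.16, Atp5b at 0.20 and Atp5a1 at 0.35, but Sdhb stood at 1.17.

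By complex, the median ratio with Pdx1 siRNA was 0.70 for complex II, 0.95 for complex III, 1.27 for complex IV and 0.91 for complex V. With NT siRNA it was 0.64 for complex II, 0.83 for complex III, 0.90 for complex IV and 0.89 for complex V. The members called higher with NT siRNA were 3 of 4 in complex II, 9 of 9 in complex III, 13 of 14 in complex IV and 16 of 17 in complex V, and the uncalled genes were Sdha, Cox5b, Atp5g2, Dmac2 and Dmac2l.

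The ratio moved with transcript length, both here and over all genes. The members' transcripts had a median length of 777 bases, against 2966 bases over all genes, and 31 of 52 were under 1 kb, against 6.73% of all genes. Across genes, which are not independent replicates, Pearson's r between the ratio with NT siRNA and log length was -0.55 over the 52 members and -0.55 over 12601 genes. With Pdx1 siRNA it was -0.36 over the members and -0.47 over the same genes. Among genes of 500 to 1000 bases the median ratio with NT siRNA was 0.90 for 24 members and 0.73 for 689 other genes, with 22 of these members and 78.2% of the other genes called higher. Among genes of 1000 to 2000 bases it was 0.82 for 13 members and 0.44 for 2645 other genes, with 12 of these members and 66.2% of the others called higher. In these classes the members lay above the median of the other genes, by an amount that was not tested.

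**Figure D4:**
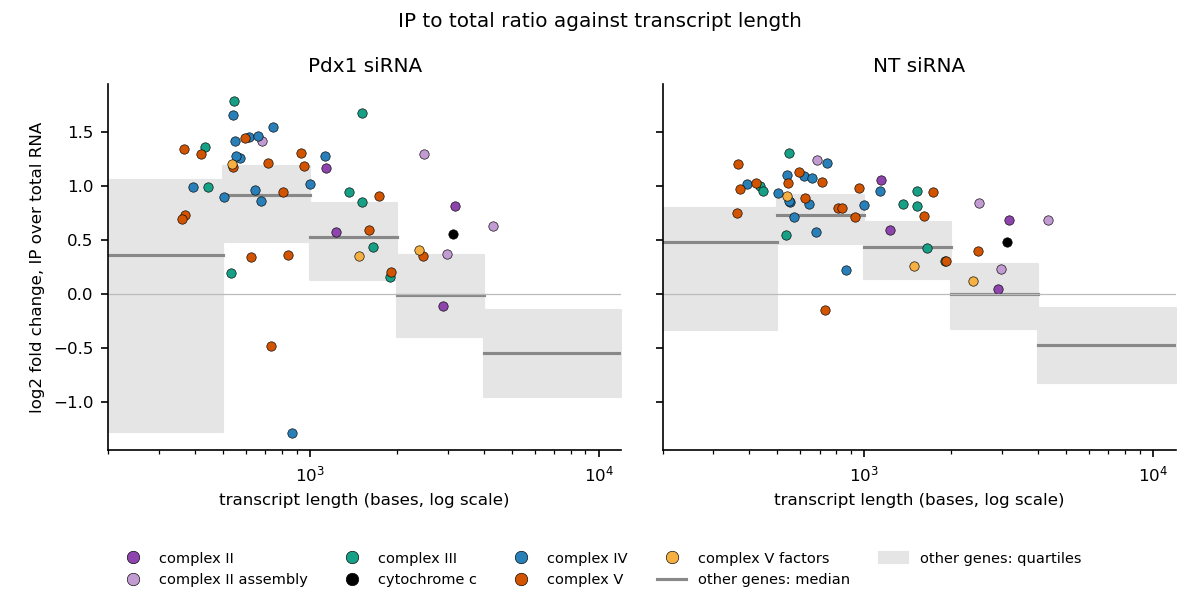
Log2 fold change of IP over total RNA against transcript length (log axis) for the 52 members, coloured by complex, with Pdx1 siRNA (left) and NT siRNA (right). Grey lines and boxes give the median and quartiles of all other genes in 5 classes of length, with medians of 0.73 at 500 to 1000 bases and -0.47 at 4000 bases and above with NT siRNA, and most members lie above the line of their class.

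Related gene lists place these ratios. With NT siRNA, 34 of 36 complex I genes were higher in IP RNA (median 1.02), 72 of 77 mitochondrial ribosomal proteins (median 0.72), 60 of 80 cytosolic ribosomal proteins (median 0.72), 27 of 35 assembly factors and regulators of complexes III to V (median 0.54) and 9 of 17 citric acid cycle enzymes (median 0.22). Of 18 regulators of respiratory gene expression, 3 were higher and 7 lower (median -0.11). Over all genes 33.8% were higher, so a raised ratio was not confined to complexes II to V.

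For the siRNA effect in total RNA, complex I had 2 higher and 8 lower of 36, assembly factors 5 higher and 8 lower of 35, and citric acid cycle enzymes 3 higher and 4 lower of 17. The lower shares were 22.2%, 22.9% and 23.5%, beside 29.2% of all genes lower and 23.8% higher. The mitochondrial ribosomal proteins had 1 higher and 46 lower of 77, or 59.7% lower. Of the regulators 2 were higher and 8 lower of 18, or 44.4% lower. Nrf1, a transcription factor of nuclear genes for mitochondrial proteins, changed by -0.76 (adjusted p = 1.13e-06), Tfb1m, a methyltransferase of mitochondrial ribosomal RNA, by -0.78 (adjusted p = 6.7e-06), and Polg, the mitochondrial DNA polymerase, by -0.56 (adjusted p = 5.6e-05). Esrra, a nuclear receptor that acts on respiratory genes, rose by 0.57 (adjusted p = 2.76e-05).

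Promoter sequences were read from RefSeq (GRCm38.p6), which had an entry for 42 of the 52 genes. The 120 bases before the start of transcription are shown for the genes of complex IV isoform pairs that had an entry. They were chosen because the siRNA calls of a pair's genes differed in total RNA, IP RNA or both. Cox7a1 and Cox7a2 differed in IP RNA alone, and both were called lower in total RNA (log2 -0.79 and -0.45). Cox6a2 had no entry, so Cox6a1 is shown without its partner. Capitals mark the motifs CCGGAAG (bound by ETS factors such as GABP) and the NRF1 motif (GCGCA, any base, GCGC) on either strand.
Cox6b2: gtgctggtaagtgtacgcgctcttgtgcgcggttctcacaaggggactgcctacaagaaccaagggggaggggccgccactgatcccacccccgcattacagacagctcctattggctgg
Cox6b1: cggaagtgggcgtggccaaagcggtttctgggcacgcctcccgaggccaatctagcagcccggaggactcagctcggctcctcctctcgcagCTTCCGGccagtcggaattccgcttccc
Cox6a1: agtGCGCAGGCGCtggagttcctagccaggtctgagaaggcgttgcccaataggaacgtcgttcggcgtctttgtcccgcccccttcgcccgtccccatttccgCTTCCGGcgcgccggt
Cox7a1: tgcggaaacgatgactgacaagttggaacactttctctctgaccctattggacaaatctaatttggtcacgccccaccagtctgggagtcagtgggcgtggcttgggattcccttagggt
Cox7a2: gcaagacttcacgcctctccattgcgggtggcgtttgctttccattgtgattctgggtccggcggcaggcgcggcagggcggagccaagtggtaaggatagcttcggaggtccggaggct
These lie at chr7:4753095-4753214 on the minus strand (Cox6b2), chr7:30626115-30626234 on the minus strand (Cox6b1), chr5:115348959-115349078 on the minus strand (Cox6a1), chr7:30184051-30184170 on the plus strand (Cox7a1) and chr9:79759854-79759973 on the minus strand (Cox7a2).

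Over the 300 bases searched (250 before and 50 after the start, both strands), the NRF1 motif was found in 12 of 42 member promoters, or 28.6%, against 4.78% of 27025 gene promoters, and CCGGAAG in 15 of 42, or 35.7%, against 9.12%. The 2 motifs share no bases with each other where they are marked. The common isoforms Cox6a1 (both motifs) and Cox6b1 (CCGGAAG) hold them, and Cox6b2, Cox7a1 and Cox7a2 hold neither. The homeodomain motif TAATTA was found in 0 of 42 member promoters and 5.31% of all, and TATAAA in 3 of 42, or 7.14%, and 14.2% of all. The YY1 motif AAGATGGCG was in 2 of 42 (4.76%) and 1.49% of all, the MEF2 motif (CTA, any 4 bases, TAG) in 1 of 42 (2.38%) and 3.70% of all, and the E-box CAGCTG in 2 of 42 (4.76%) and 16.1% of all. In total RNA, 1 of the 12 genes with the NRF1 motif rose and 3 fell (median -0.14), and 3 of the 30 without it rose and 6 fell (median -0.13). Of the 15 with CCGGAAG, 1 rose and 1 fell (median -0.06), and of the 27 without it 3 rose and 8 fell (median -0.14). Median GC content was 57.3% over the member promoters and 52.7% over all promoters, which are not limited to the genes measured here. Its part in the motif shares was not tested. A match describes the letters in this window and is not evidence of binding.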

How the data were processed

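Per the submitters' processing notes, TopHat2, featureCounts and mm10 were used. No source used here gives versions, the strand setting or the treatment of reads with several matches. The deposited files hold raw counts per RefSeq transcript, 1 file per library. Of 17133 transcripts, 16838 were matched to a symbol in a RefSeq table of GRCm38.p6. The other 295 held 0.577% to 0.834% of counts and were left out. The transcript with the highest total stood for each gene.

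All 12643 genes entered 1 edgeR 4.0.16 quasi-likelihood fit in R 4.3.3 with a mean per group, TMM factors and the default filter, which removed 0 genes. Calls were made at an adjusted p under 0.05 (Benjamini-Hochberg, all genes). In all, 25 alternatives were run, among them DESeq2 1.42.0, other scalings, the split term (chosen from the counts in an earlier analysis of these data) and each library left out. Leaving out replicate 1 of both total RNA groups and scaling by library totals alone were chosen after seeing the data. Copies were found with minimap2 2.31 on GENCODE M21 transcripts. The replicate number was used as a block in 1 alternative.

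Named genes were up to 3 members per complex at each end of the changes past the test, plus isoform families. Atpif1 was added as a newer Atp5 name. Genes and lists were chosen with earlier results of these data known. Reads were amplified by PCR and carry no molecular identifiers, so the true error exceeds counting error.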

Additional observations from a re-analysis of the deposited data

Results flagged for a closer look

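The siRNA effect on Uqcrq differed between the fractions by the test of the difference itself. The effect in IP RNA minus that in total RNA was 0.72 on the log2 scale, with an adjusted p of 0.0482 (edgeR quasi-likelihood test over all genes). Every Pdx1 siRNA IP library was above every NT IP library, while the total RNA libraries overlapped. Over the 12 leave-one-out fits the difference lay between 0.58 and 0.79, with adjusted p up to 0.152, and with the split term it was 0.75 with an adjusted p of 0.27.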

How the results depend on the processing

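Of 136 called member values over all contrasts, 86 were called in the same direction under all 25 alternatives. Most of these were IP against total RNA, with 37 of 47 calls kept under NT siRNA and 34 of 46 under Pdx1 siRNA. For the siRNA effect 7 of 17 calls were kept in total RNA and 8 of 25 in IP RNA. The 1 call for the difference was not kept. Each group had 3 libraries, with a minimum of 29430690 counts a library. Cox6b2, counted 10 to 28 times in the NT total RNA libraries, had a standard error of 0.23 for the siRNA effect in total RNA (log2). That of Cox5b was larger, at 0.34, with 1049 to 2113 counts in the total RNA libraries.

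Leaving out 1 library gave 2 to 4 higher and 6 to 23 lower members for the siRNA effect in total RNA. It gave 8 to 16 higher and 9 to 13 lower in IP RNA, and 0 to 6 higher and 0 to 3 lower for the difference between the effects. Over all 12643 genes it gave 2612 to 3271 higher and 2656 to 3865 lower in total RNA. In IP RNA it gave 3215 to 3913 genes higher and 3385 to 4018 lower, and for the difference 2 to 243 higher and 2 to 328 lower. With IP RNA against total RNA it gave 43 to 47 members higher with Pdx1 siRNA, beside 4353 to 4672 of all 12643 genes. With NT siRNA it gave 45 to 48 members higher, beside 3910 to 4599 genes. With the split term 5 members were higher and 4 lower in IP RNA, and 0 were higher for the difference. The split term left 0 members lower for IP against total RNA with Pdx1 siRNA. Leaving out NT IP replicates 1 and 2 sets the Pdx1 siRNA IP libraries against NT IP replicate 3, as the split term does. Both therefore give almost the same siRNA effect in IP RNA by construction and are not separate checks of it. For Cox5b this effect was 0.028 in both. Its IP to total value with NT siRNA was -1.50 without NT IP replicates 1 and 2. With Pdx1 siRNA it was 0.89 under the split term.

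Library totals alone lower the median of all genes. They gave 1 member higher and 37 lower in total RNA, and 5 higher and 29 lower in IP RNA. Over all 12643 genes they gave 1485 higher and 6951 lower in total RNA, and 1692 higher and 6762 lower in IP RNA. For the difference 0 members were called, beside 8 genes higher and 3 lower. For IP against total RNA 3 members were lower with Pdx1 siRNA and 1 with NT siRNA, beside 6847 and 6588 genes. Library totals alone turned Sdha to -0.062 and Cox6a1 to -0.199 in total RNA. In IP RNA they turned Atpif1 to -0.015, Dmac2 to -0.083 and Sdha to -0.25. For IP against total RNA with NT siRNA they turned Sdha to -0.25 and Sdhaf2 to -0.062. Upper-quartile factors gave 2 members lower with Pdx1 siRNA for IP against total RNA, beside 5161 of all genes. For the difference, DESeq2 gave 4 higher, the sum over transcripts 0, and leaving out replicate 1 of both total RNA groups 0.

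The labels do not say that a replicate number pairs the samples, and the data do not settle it: same-numbered libraries of different groups correlated between -0.11 and 0.51, over 0.1 in 9 of 18 pairs, and 23 of 36 best partners shared the number. With a replicate block, 4 members were higher and 17 lower in total RNA, 16 higher and 13 lower in IP RNA, and 5 higher for the difference. Over all 12643 genes the block gave 3242 higher and 3989 lower in total RNA and 3897 higher and 4029 lower in IP RNA. For the difference it gave 203 genes higher and 170 lower.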
